A study of Mus musculus with 6 samples.

Results

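Transcripts of DNA replication and of the step from G1 into S phase were followed in mouse megakaryocyte progenitors with and without Srf. The set was a list of 45 genes named by symbol, chosen with earlier results of these data known. Of these 42 had a probe on the bead array, and Mcm3, Gins1 and Rfc2 had none. Where a gene had several probes, the one brightest on average across the 6 arrays stood for it. Testing required detection above the negative control beads (detection p under 0.05) on every array of either genotype, and 39 of the 42 genes met this, each on all 6 arrays. Orc1, Pola1 and Gins2 were not well above background on any array and were not tested. In all, 6864 of 15967 genes with a probe were tested in this way.

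The cells came from bone marrow of C57BL/6 mice. They were depleted of lineage-marked cells, kept overnight in stem cell factor and thrombopoietin, sorted for CD41 and c-kit, and grown for 3 days in thrombopoietin, the cytokine that drives megakaryocyte maturation. The wild-type group (genotype label SRF wt, 3 arrays) had intact Srf, which encodes the transcription factor serum response factor. In the knockout group (SRF ko, 3 arrays) Srf was deleted by Cre recombinase under the promoter of Pf4, a platelet chemokine gene, which limits deletion mainly to the megakaryocyte lineage. The labels give no age and do not say which Cre or floxed alleles the wild-type mice carried. They number the samples without tying them to animals, so the spread behind each p-value is that between samples and may be technical. Srf lay at log2 11.89 to 12.31 in the wild-type and 7.20 to 7.56 in the knockout.

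Before a cell copies its DNA, the origin recognition complex, Cdc6 and Cdt1 load the ring-shaped MCM helicase onto origins, and geminin blocks further loading. Cyclin D with Cdk4 or Cdk6 and cyclin E with Cdk2 release E2F transcription factors from the retinoblastoma protein, and E2F then switches on genes of the replication machinery and nucleotide supply. Megakaryocytes are known for endomitosis, in which DNA is copied again and again without cell division, so that the cells become polyploid. In mice, cyclin E is needed for this polyploidy, and cyclin D3 is the D-type cyclin best known in the lineage.

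The promoters of some of these genes hold letters that match the E2F motif, and most of those searched do not. The windows were taken from RefSeq (GRCm38.p6) and run from 250 bases before to 50 after each annotated start. A window was found for 35 of the 45 genes, 41 windows in all. They were searched on both strands for the 4 forms of the E2F motif, TTTCCCGC, TTTCGCGC, TTTGCCGC and TTTGGCGC, whose matches on opposite strands can overlap, and for the CArG box, the 10-base motif that SRF binds. An E2F motif was present in 29.3% of the 41 windows (12 windows, of 12 genes) against 2.26% of all 32851 windows. At least 2 matches were present in 12.2% of the windows against 0.0974% of all. A CArG box was present in 1 window, that of Tyms (2.44%, against 1.63% of all). A match is a run of letters and does not show that a factor binds there. The window of Mcm2 held no E2F match. The 250 bases before the start are given for 3 MCM helicase genes that hold matches, shown in capitals. They are also given for Tyms, with the CArG box in capitals.
Mcm5 (chr8:75109259-75109508, plus strand): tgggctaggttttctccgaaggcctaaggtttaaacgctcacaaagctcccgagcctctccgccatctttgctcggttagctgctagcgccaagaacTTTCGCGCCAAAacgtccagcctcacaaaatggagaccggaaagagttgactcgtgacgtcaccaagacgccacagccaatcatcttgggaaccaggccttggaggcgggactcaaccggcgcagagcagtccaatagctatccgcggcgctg
Mcm6 (chr1:128359706-128359955, minus strand): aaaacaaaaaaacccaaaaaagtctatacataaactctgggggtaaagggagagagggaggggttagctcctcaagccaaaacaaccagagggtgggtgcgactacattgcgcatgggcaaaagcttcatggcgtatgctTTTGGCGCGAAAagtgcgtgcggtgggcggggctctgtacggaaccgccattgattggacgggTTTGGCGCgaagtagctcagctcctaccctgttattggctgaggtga
Mcm7 (chr5:138171884-138172133, minus strand): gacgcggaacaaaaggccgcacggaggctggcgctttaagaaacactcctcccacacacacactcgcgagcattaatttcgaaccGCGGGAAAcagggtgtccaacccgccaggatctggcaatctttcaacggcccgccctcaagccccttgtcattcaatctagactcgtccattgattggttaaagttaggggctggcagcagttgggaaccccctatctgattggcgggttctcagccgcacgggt
Tyms (chr5:30073626-30073875, minus strand): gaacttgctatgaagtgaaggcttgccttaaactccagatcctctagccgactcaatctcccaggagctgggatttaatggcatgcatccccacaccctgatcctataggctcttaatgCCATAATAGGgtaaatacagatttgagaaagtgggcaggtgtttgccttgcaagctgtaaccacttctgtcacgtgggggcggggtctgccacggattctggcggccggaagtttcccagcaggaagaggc

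None of the 39 tested genes passed the test between knockout and wild-type (limma, Benjamini-Hochberg adjusted p under 0.05 over all 9403 tested probes), and the smallest adjusted p among them was 0.324. In the same fit 0.160% of all tested probes passed. At an unadjusted p under 0.05 there were 4 of the 39, or 10.3%, against 13.7% of all tested probes and 12.8% of all tested genes. Of these 3 were higher (Ccnd3, Cdk6 and E2f1) and 1 lower (Ccne2), where 7.75% of all tested probes were higher and 5.97% lower. The arrays of the groups were apart for 5 genes, or 12.8%, against 18.9% of all tested probes and 18.1% of all tested genes. In 4 of them the knockout was lower (Ccne2, Chaf1b, Prim1 and Rfc4) and in 1 higher (Cdk6), against 9.08% and 9.77% of all tested probes. By mean, 24 genes were lower in the knockout and 15 higher, with a median difference of -0.03 on the log2 scale, against -0.01 over all tested genes. The differences ran from -0.70 for Ccne2 to 0.60 for Ccnd3.

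The intervals give the precision of each difference when the 6 arrays are taken as independent samples. They rest on a spread that may be technical, so they do not bound all that could have been missed. The 95% interval of the difference lay within a 2-fold change either way for 36 of 39 genes (92.3%, against 85.1% of all tested genes). The other 3 were Ccne2, Pold1 and Ccnd3. Among the 36, dimmer tested probes of some genes had intervals that crossed a 2-fold change. These were -1.37 to -0.51 for Cdk4, 0.16 to 1.19 for Ccnd1, -0.78 to 1.14 for Lig1 and -1.03 to -0.06 for Rfc4. The typical standard error was 0.16 (median over the 39 genes), against 0.18 over all tested genes.

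**Figure D1:**
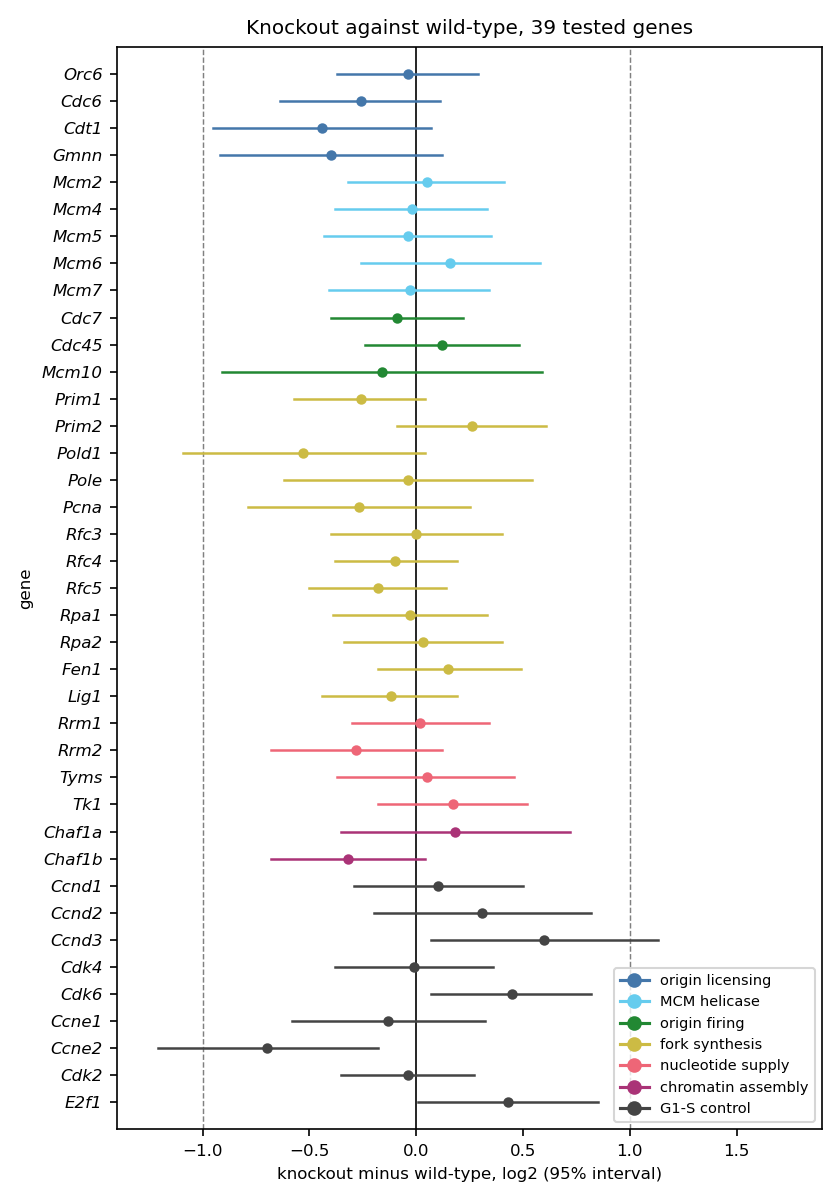
Difference between knockout and wild-type (horizontal axis, log2 scale) for the 39 tested genes, coloured by role. Points are differences of means over 3 arrays each, lines are 95% intervals from limma, and dashed lines mark a 2-fold change. The intervals of Ccne2, Pold1 and Ccnd3 cross a dashed line, and those of the other 36 stay within them.

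The MCM helicase, which unwinds DNA at the fork, showed the smallest median size of difference among the roles. The 5 tested subunits differed by -0.04 (Mcm5) to 0.16 (Mcm6), with a median size of 0.04. Mcm4 lay at log2 13.28, 13.28 and 13.30 in the 3 wild-type arrays and at 13.01, 13.36 and 13.43 in the knockout. The knockout values spanned the wild-type values on both sides. Its 95% interval was -0.38 to 0.33. Mcm2 (0.05), Mcm5 (-0.04) and Mcm7 (-0.03) had intervals within -0.43 to 0.41, and Mcm6 one of -0.26 to 0.58. Mcm5, whose promoter carries the overlapping E2F matches shown above, lay at 12.98, 13.17 and 13.22 in the wild-type and 12.80, 13.22 and 13.24 in the knockout, with the groups overlapping.

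The 4 tested genes of origin licensing, which are 3 loading factors and geminin, were all lower by mean, none past the test. Cdt1, the loading factor, lay at 10.49, 11.03 and 11.33 in wild-type replicates 1 to 3 and at 10.47, 10.43 and 10.63 in the knockout. Wild-type replicates 2 and 3 were above every knockout array and replicate 1 lay among them. The difference was -0.44 (SE 0.22, limma adjusted p = 0.409). Gmnn, geminin, which holds Cdt1 back, was at -0.40 (SE 0.22), with 8.50, 8.50 and 8.97 in the wild-type against 7.98, 8.13 and 8.66. Cdc6 was at -0.26 (SE 0.16), with 9.45, 9.46 and 9.50 against 9.04, 9.09 and 9.50. In both genes knockout replicate 3 reached the wild-type range and the other knockout arrays lay below it. Orc6, a subunit of the origin recognition complex, was at -0.04 (SE 0.14).

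Of the 3 tested origin firing factors, Mcm10 and Cdc45 varied more within the knockout than between the groups. Mcm10, which helps to activate the loaded helicase, had the largest SD of all 39 genes in the knockout, 0.68 (n = 3). It lay at 9.50, 9.25 and 9.04 in the wild-type and at 8.32, 9.42 and 9.56 in the knockout, where replicate 1 was below all other arrays. Its difference was -0.16 with all arrays and 0.23 without knockout replicate 1. Cdc45, a partner of the MCM ring in the active helicase, was at 0.12 (SE 0.16), with a knockout SD of 0.23 (n = 3). Cdc7, the kinase that triggers firing, was at -0.09 (SE 0.13), with a knockout SD of 0.09 (n = 3).

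Among the 12 tested genes of the replication fork 9 were lower (counting Rfc3, at -0.00) and 3 higher, with a median of -0.07 and none past the test. Pold1, the catalytic subunit of DNA polymerase delta, stood at 10.94, 11.56 and 11.94 in the wild-type and at 10.94, 10.99 and 10.95 in the knockout. Wild-type replicate 1 was level with the knockout arrays, and replicates 2 and 3 were above them. The difference was -0.53 (SE 0.24, limma adjusted p = 0.383), and the wild-type SD of 0.51 was the largest of the 39 genes. Pole, the catalytic subunit of polymerase epsilon on the leading strand, was at -0.04 (SE 0.25), with knockout replicate 1 at 9.19 and the other 5 arrays at 9.73 to 10.11.

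Prim1 and Prim2 encode the subunits of primase, which lays the RNA primers, and leaned in opposite directions. Prim1 was at 8.92, 9.03 and 9.06 in the wild-type and 8.76, 8.66 and 8.81 in the knockout, with the groups apart. Its difference was -0.26 (SE 0.13, limma adjusted p = 0.405). Prim2 was at 0.26 (SE 0.15), with 9.69, 9.48 and 9.35 against 9.88, 9.75 and 9.67, and the groups overlapping. Pcna, the sliding clamp, lay at 10.04, 10.02 and 10.35 against 9.68, 9.58 and 10.33, a difference of -0.27 (SE 0.22). The clamp loader subunits Rfc3 (-0.00), Rfc4 (-0.10) and Rfc5 (-0.18), the single-strand binding proteins Rpa1 (-0.03) and Rpa2 (0.03), the flap nuclease Fen1 (0.15) and DNA ligase Lig1 (-0.12) each differed by less than 0.2. A second Rfc4 probe was at -0.55 (limma adjusted p = 0.343).

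Of the enzymes that supply nucleotides, Rrm1 and Rrm2 form ribonucleotide reductase. Rrm2 was at -0.28 (SE 0.17), with 10.57, 10.97 and 10.66 against 10.22, 10.54 and 10.58. Rrm1 was at 0.02 (SE 0.14). Thymidylate synthase Tyms, which holds the CArG box shown above, was at 0.05 (SE 0.18), with 11.26, 11.26 and 11.19 against 10.93, 11.42 and 11.50. Thymidine kinase Tk1 was at 0.17 (SE 0.15) by its main probe and at -0.21 by a second. The subunits of chromatin assembly factor 1, which places histones on new DNA, were at 0.18 (Chaf1a, SE 0.23) and -0.32 (Chaf1b, SE 0.15). Chaf1b lay at 10.91, 11.05 and 11.28 in the wild-type and 10.88, 10.78 and 10.61 in the knockout, apart by a narrow gap.

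**Figure D2:**
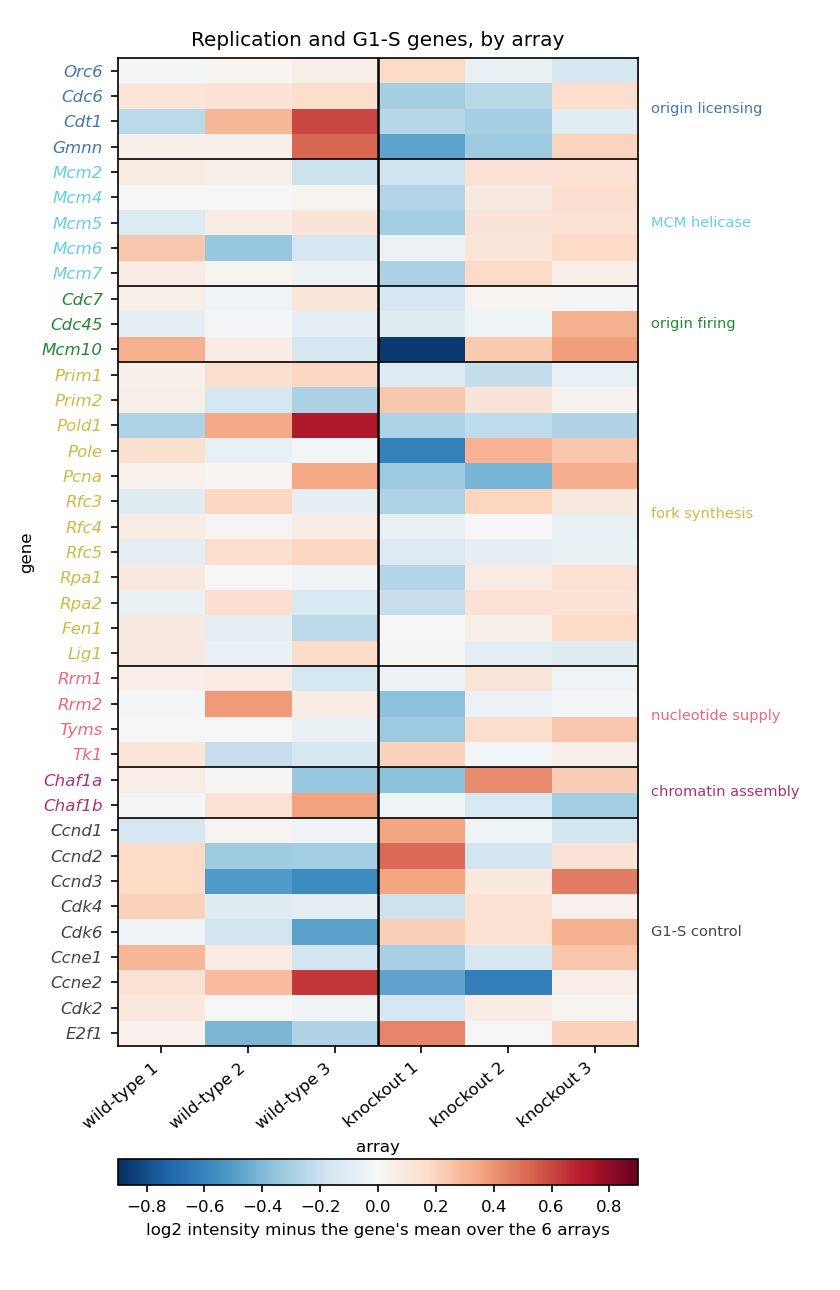
Log2 intensity of each tested gene on each array (columns), minus the gene's mean over the 6 arrays (colour scale, log2), with genes grouped by role. Knockout replicate 1 is the lowest array for 20 of the 39 genes, and Mcm10 there stands 0.86 below its mean.

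The regulators of the G1 to S step held all 4 genes with an unadjusted p under 0.05. That was 44.4% of the 9 tested regulators, against 12.8% of all tested genes, and the regulators were not tested as a set. Of the 9 tested regulators 5 were higher and 4 lower, with a median of 0.10 and none past the test. Ccnd3, cyclin D3, stood at 11.22, 10.53 and 10.47 in the wild-type and 11.40, 11.13 and 11.50 in the knockout. Wild-type replicates 2 and 3 were below every knockout array and replicate 1 lay within their range. The difference was 0.60 (95% interval 0.07 to 1.13, limma adjusted p = 0.338), 1.52-fold, and a second Ccnd3 probe was at 0.46. Ccnd2, cyclin D2, was at 12.26, 11.76 and 11.77 against 12.59, 11.92 and 12.20, a difference of 0.31 (SE 0.22) with the groups overlapping. Here too only wild-type replicate 1 lay within the knockout range, and replicates 2 and 3 were below it.

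Ccnd1, cyclin D1, was seen by 4 probes that were all higher by mean in the knockout, by 0.10 to 0.67. Its main probe was at 12.02, 12.20 and 12.14 against 12.53, 12.14 and 12.01, and a dimmer one at 9.51, 9.50 and 9.63 against 10.67, 9.81 and 10.18. The groups overlapped by the first and were apart by the second, whose difference was 0.67 (SE 0.22, limma adjusted p = 0.326). Knockout replicate 1 was the highest array by all 4 probes.

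Of the kinases that act with cyclin D, Cdk6 was dim, at 7.34, 7.20 and 6.88 in the wild-type and 7.58, 7.50 and 7.68 in the knockout, with the groups apart. Its difference was 0.45 (SE 0.16, limma adjusted p = 0.332), against 0.15 when the same fit was run on the authors' processed values, whose floor is raised to 7.80. Cdk4 lay by its main probe at 11.76, 11.44 and 11.47 in the wild-type and 11.36, 11.69 and 11.59 in the knockout, with the groups overlapping. The difference was -0.01 (SE 0.16), and -0.01 by a second probe. Another Cdk4 probe lay at 8.29, 8.48 and 8.84 against 7.40, 7.75 and 7.63, with the groups apart and a difference of -0.94 (SE 0.18). That probe had the smallest unadjusted p of all 57 tested probes of these genes (0.00106, limma adjusted p = 0.202). The position of the probes within the transcripts is not known here.

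Ccne2, cyclin E2, had the lowest difference of the 39 genes. It lay at 8.04, 8.19 and 8.55 in the wild-type and 7.44, 7.29 and 7.97 in the knockout, with the groups apart by a narrow gap. The difference was -0.70 (95% interval -1.21 to -0.18, limma adjusted p = 0.324), 1.62-fold lower, against -0.29 in the authors' processed values. Ccne1, cyclin E1, was at -0.13 (SE 0.19), with 8.61, 8.38 and 8.14 against 8.02, 8.17 and 8.56. Cdk2, the partner of cyclin E, lay by its main probe at 12.46, 12.36 and 12.34 against 12.21, 12.43 and 12.39, with the groups overlapping. The difference was -0.04 (SE 0.13), and its other 3 probes ran from -0.11 to 0.27. E2f1, an E2F family member that activates replication genes, was at 11.31 in wild-type replicate 1, at 10.86 in replicate 2 and between these in replicate 3. The wild-type mean was 11.06 (SD 0.23, n = 3), and the knockout arrays were at 11.71, 11.28 and 11.48. Wild-type replicate 1 overlapped the knockout range, and replicates 2 and 3 were below it. The difference was 0.43 (SE 0.18, limma adjusted p = 0.353).

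**Figure D3:**
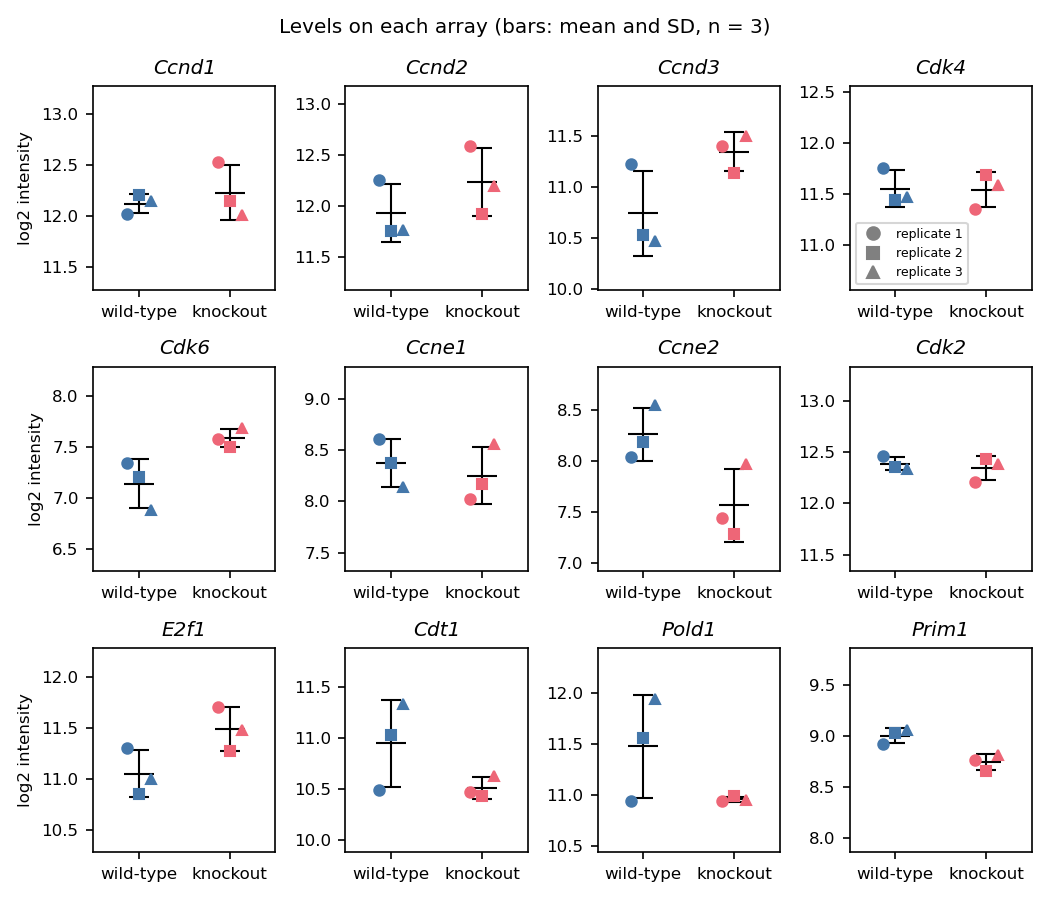
Log2 intensity (vertical axes, each spanning the same range of 2) of the 9 G1-S regulators and of Cdt1, Pold1 and Prim1 on each array, by genotype. Bars are the mean and SD of 3 arrays, and the marker shape is the replicate number, which is not known to pair the groups. Wild-type replicates 2 and 3 lie on 1 side of the knockout arrays for Ccnd2, Ccnd3, E2f1, Cdt1 and Pold1. For these genes wild-type replicate 1 lies level with the knockout.

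Several of these differences moved with the arrays used. Markers of other blood cells differed between arrays too. Of the 12 granulocyte markers detected on any array, 6 were highest in wild-type replicate 3 (Mpo, Elane, Prtn3, Ctsg, Ms4a3 and Fcnb) and 6 in knockout replicate 1 (Ngp, Camp, Ltf, Lcn2, S100a8 and S100a9). Mpo, a granulocyte enzyme and the brightest of them, was at 14.74 in wild-type replicate 2, 14.93 in replicate 3 and 13.07 in knockout replicate 1, against 7.64 to 8.98 on the other arrays. Ngp, a protein of neutrophil granules, was nearly level in the wild-type, at 6.33, 6.44 and 6.48, and at 8.78 in knockout replicate 1. All 6 mast cell and basophil markers detected on any array were highest in wild-type replicate 3. Cpa3, the brightest of them, reached 12.64 and 12.88 in wild-type replicates 2 and 3, against 6.62 to 8.21 on the other 4 arrays. Mcpt8, the next brightest, reached 11.45 and 11.97 in the same 2 replicates, against 5.49 to 6.83 on the other 4 arrays. The summed intensity of 13 granulocyte markers was 2163 to 58616 in the wild-type and 1793 to 29879 in the knockout, and that of 11 mast cell and basophil markers 331 to 14423 and 422 to 629. Of the mast cell and basophil markers 5 were detected on no array (Mcpt4, Tpsb2, Tpsab1, Cma1 and Mcpt1), and of the granulocyte markers 1 (Mmp8). Erythroid markers summed to 1036 to 3594 in the wild-type and 895 to 1001 in the knockout, with Hba-a1, Slc4a1, Ermap and Rhag of 10 undetected. All 12 megakaryocyte markers with a probe were detected on all 6 arrays, summing to 110035 to 133675 and 113754 to 126095. In these bulk samples fewer cells of a type and less RNA per cell cannot be told apart.

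Without wild-type replicates 2 and 3 the difference was 0.02 for Pold1, 0.02 for Cdt1, 0.12 for Ccnd3, -0.02 for Ccnd2 and 0.17 for E2f1. Ccne2 (-0.48), Cdk6 (0.24) and Gmnn (-0.24) kept their sign at smaller size. None of the 39 passed in that fit, in which wild-type replicate 1 stood alone and was assumed to vary like the knockout. Without wild-type replicate 1, Ccnd3 rose (0.84) and Pold1 fell (-0.80), 2 of 39 genes, with the smallest limma adjusted p at 0.0327. In that fit 6.80% of all tested probes passed. When limma estimated a weight for each array, 6 of 39 genes passed: Ccnd3, Cdk6 and E2f1 higher, and Ccne2, Cdt1 and Pold1 lower. In that fit 20.8% of all tested probes passed, and the weights ran from 0.32 for wild-type replicate 1 to 5.91 for wild-type replicate 2, so that the wild-type mean rested mainly on 1 array.

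**Figure D4:**
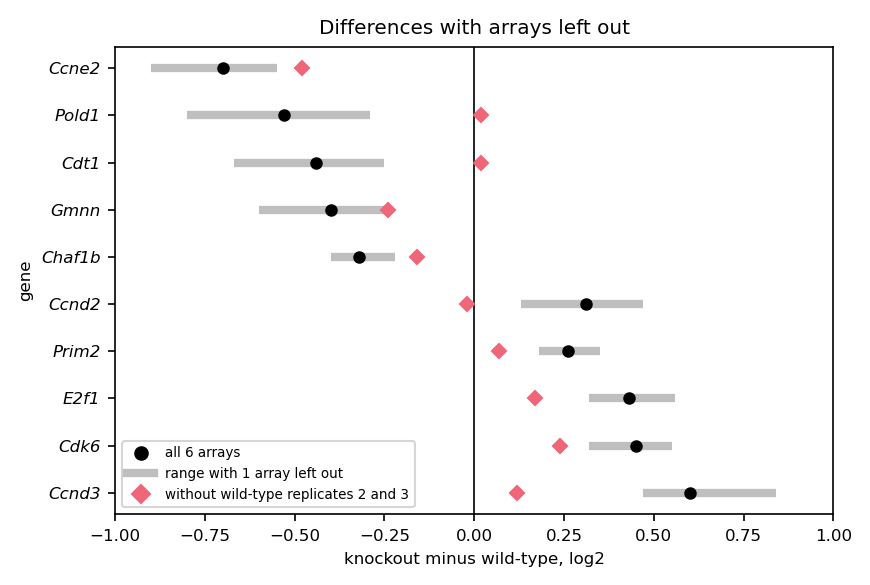
Difference between knockout and wild-type (horizontal axis, log2) for the 5 genes with the lowest and the 5 with the highest differences. Black points use all 6 arrays, grey bars span the values with 1 array left out at a time, and red diamonds leave out wild-type replicates 2 and 3. Pold1 and Cdt1 go to 0.02 and Ccnd2 to -0.02 without those 2 arrays, while Ccne2 is at -0.48.

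Knockout replicate 1 was the lowest array for 20 of the 39 genes (51.3%), against 21.9% of all tested genes. The lowest values there took in 3 of 5 MCM subunits, all 3 firing factors and 6 of 12 fork genes. Low values on knockout replicate 1 were not particular to this set. Among G2 and mitosis genes, Top2a (11.45, against 11.57 to 11.89 on the other arrays) and Kif23 (10.33, against 10.72 to 11.35) were lowest there, but Cdk1 was not. Among other replication genes, Gins3 (7.30, against 8.26 to 8.78) and Dbf4 (11.34, against 11.52 to 12.11) were lowest there, but Orc5 was highest there. The median deviation of the 39 genes from their own means was -0.19 on that array and between -0.04 and 0.12 on the other 5, while over all tested genes it lay between -0.01 and 0.02 on every array. It was the highest array for 6 genes (15.4%, against 20.4% of all tested genes), which were Orc6, Prim2, Tk1, Ccnd1, Ccnd2 and E2f1. This array also had the largest bead error, a median standard error of 9.55% of the intensity for the 39 genes against 4.33% to 5.41% on the others. Over all tested probes the bead error was alike, 9.53% against 4.59% to 6.35%. It had the highest level of the granulocyte gene S100a8 as well (13.23, against 8.72 to 11.20 on the other arrays). The part of the bead error or of the granulocyte transcripts in the low values was not tested. Without this array the median difference of the 39 genes was 0.09, with 23 higher and 16 lower.

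Further genes of the pathway did not pass either. Of 42 other replication genes 33 were tested and none passed, with 20 lower, 13 higher and a median of -0.06. At an unadjusted p under 0.05 there were 6 (18.2%, against 13.7% of all tested probes). Those with the smallest p were Orc5, an origin recognition subunit, at 0.64 (SE 0.20, limma adjusted p = 0.324), the histone chaperone Asf1a at -0.60 (SE 0.19) and Pola2, a subunit of DNA polymerase alpha, at -0.53 (SE 0.20). Pola2 lay at 9.50, 10.13 and 10.09 in the wild-type and 9.49, 9.35 and 9.29 in the knockout, so that wild-type replicate 1 was again nearly level with the knockout.

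Of 30 other regulators of the G1 to S step 20 were tested and none passed, with 10 lower, 10 higher and a median of 0.01. At an unadjusted p under 0.05 there were 8 of 20 (40%), against 13.7% of all tested probes. Cdc25a, the phosphatase that activates Cdk2, was at 9.15, 9.49 and 9.35 in the wild-type and 8.75, 8.67 and 8.98 in the knockout, apart, with a difference of -0.53 (SE 0.16, limma adjusted p = 0.32). The cyclin D kinase inhibitor Cdkn2d was at 0.60 (SE 0.21) and the Cdk inhibitor Cdkn1c at -0.48 (SE 0.19). The tested E2F genes of this list did not lean higher like E2f1. E2f2 was at -0.36 (SE 0.15) and E2f3 at -0.32 (SE 0.12), both with the groups apart. E2f7 was at -0.30 (SE 0.17) and E2f6 at 0.03 (SE 0.19), both with the groups overlapping. Of 28 genes of G2 and mitosis 19 were tested and none passed, with 12 lower, 7 higher and a median of -0.15. At an unadjusted p under 0.05 there was 1 (5.26%, against 13.7% of all tested probes). Kif23, a kinesin of cytokinesis, was at -0.59 (SE 0.17, limma adjusted p = 0.32), the spindle-associated gene Nusap1 at -0.31 (SE 0.14) and Ube2c, a ubiquitin conjugating enzyme of mitotic exit, at -0.59 (SE 0.32).

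Several genes were read by more than 1 tested probe. Of 12 such genes, 5 had all tested probes on 1 side of zero (Ccnd1, Ccnd3, Cdk4, Rfc4 and Rpa2), and 7 did not (Cdk2, Lig1, Mcm6, Mcm7, Rrm2, Tk1 and Tyms). No tested probe of the 39 genes passed. The largest gap between the differences of probes of 1 gene was 0.93, for Cdk4.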

How the data were processed

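The deposited raw table gave, per the file headers, a linear intensity for each of 24611 probes on 6 Illumina bead arrays, the standard error of the bead signal, the count of beads and a detection p-value. Per the submitters' processing notes BeadStudio 3.2 and lumi were used, in roles not given in the sources used here. The authors' processed log2 values had a median of 8.22 on every array and a lowest value of 7.80, with the transform and background step not given in the sources used here.

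Intensities were corrected and quantile normalised by neqc (limma 3.58.1, R 4.3.3) with an offset of 16, which estimates the negative control level from the detection p-values and returns log2 values. All 9403 probes that passed the detection filter were fitted together with lmFit and eBayes, two-sided, and adjusted by Benjamini-Hochberg. The fit was tested on simulated data with independent noise for each probe. Shifts shared by a whole array were not simulated, so that test does not show how many changes the fit missed here. The number of arrays limits the precision. Each array detected 9801 to 10364 probes, from 14 or more beads for each gene of the set. At most 1 probe had an identical raw value on any pair of arrays.

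Symbols came from the platform annotation, and all 69 probes of the set matched the gene table of GRCm38.p6 by Entrez number. Values were given for every tested gene, with all arrays for the G1-S regulators (E2f1 in wild-type replicate 3 only as lying between the others), for genes with an unadjusted p under 0.05 and for the 5 highest and 5 lowest differences. Of the other lists the 3 genes with the smallest p were named. Further genes of these lists were named for the E2F family and for their values on knockout replicate 1. The genes, lists and alternatives were chosen with earlier results of these data known. Levels of different probes are not comparable.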

Additional observations from a re-analysis of the deposited data

How the results depend on the processing

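The 39 differences were recomputed under 18 alternatives, 702 values in all. Of these 8 passed the test, 6 with array weights and 2 without wild-type replicate 1, and 67 had the sign opposite to that with all arrays. None of the 39 genes passed under any of the other 16 alternatives, with smallest adjusted p from 0.268 (eBayes with trend and robust) to 1 (without wild-type replicates 2 and 3). With 1 array left out 0 to 2 of the 39 genes passed, and 0 to 1 of the other replication genes and of the other G1-S regulators, the higher number without wild-type replicate 1. With array weights 6 of the 39, 5 other replication genes, 6 other G1-S regulators and 1 mitosis gene passed. Over all probes the count was 15, and it was 9 with no filter, 1955 with array weights and 7 to 639 with 1 array left out, the highest without wild-type replicate 1. Leaving out knockout replicate 1 gave 8, and leaving out knockout replicate 2, knockout replicate 3 or wild-type replicate 2 gave 7 each. The median of the 39 was -0.03 and turned to 0.09 without knockout replicate 1 and 0.01 without that array and wild-type replicates 2 and 3. The labels do not say whether the replicate numbers pair the groups. Same-numbered arrays had correlations of deviations of -0.27, -0.13 and -0.09, and arrays with differing numbers -0.16 to 0.22. With 3 arrays per group these values cannot settle whether the groups were paired. The replicate block called 6 probes and none of the 39 genes.

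Outside the fits without wild-type replicates 2 and 3, no gene with a difference over 0.17 in size changed sign. Scaling to the 75th percentile, which moved the median of all genes to -0.04, put Mcm2 at -0.02 and Rrm1 at -0.04. Rfc3, at -0.00 with all arrays, was at 0.00 in the authors' processed values. Array weights put Mcm4 at 0.04, Mcm7 at 0.04, Mcm10 at 0.07, Pole at 0.20, Rpa1 at 0.05, Rpa2 at -0.04, Rrm1 at -0.01, Ccnd1 at -0.04, Cdk4 at 0.15 and Cdk2 at 0.02. The mean over a gene's probes put Mcm7 at 0.01, Lig1 at 0.08, Tk1 at -0.02 and Cdk2 at 0.07. In the 8 fits with arrays left out, including those without wild-type replicates 2 and 3, 23 genes changed sign at least in 1, and their ranges were -0.05 to 0.21 for Ccnd1, -0.20 to 0.47 for Ccnd2, -0.01 to 0.22 for Cdc45, -0.11 to 0.03 for Cdk2 (-0.08 to 0.03 with 1 array left out), -0.21 to 0.09 for Cdk4 (-0.08 to 0.09), -0.67 to 0.04 for Cdt1, -0.01 to 0.23 for Fen1, -0.40 to 0.23 for Mcm10 (-0.39 to 0.23), -0.04 to 0.15 for Mcm2, -0.10 to 0.11 for Mcm4, -0.12 to 0.24 for Mcm5, -0.16 to 0.33 for Mcm6, -0.13 to 0.10 for Mcm7, -0.13 to 0.03 for Orc6, -0.80 to 0.03 for Pold1, -0.20 to 0.26 for Pole, -0.10 to 0.24 for Rfc3 (-0.10 to 0.14), -0.26 to 0.01 for Rfc5, -0.11 to 0.09 for Rpa1, -0.03 to 0.19 for Rpa2, -0.06 to 0.06 for Rrm1, -0.09 to 0.27 for Tk1 and -0.06 to 0.22 for Tyms. The cause was not tested.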
